A study of Talpa occidentalis with 2 samples.

Results

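WNT6, WNT10A, IHH, EPHA4 and PAX3 are 5 developmental genes that mammals keep in a single stretch of chromosome, and they are described here in the genome annotation of the Iberian mole, Talpa occidentalis. The genes were found by symbol in the gene models deposited for the mole build talOcc3, and every model lying between the outermost of them was taken with them. Each of the 5 symbols had exactly 1 model, and 32 further models lay between WNT6 and PAX3, so the stretch held 37 of the 23336 models of the annotation. The series itself measured, by 4C-seq (which reads the chromatin fragments lying near a chosen site), the contacts of the FGF9 start in 2 wild-type libraries of embryonic day 15, 1 from forebrain and 1 from hindlimb. Those libraries have no column in the annotation and contact values were not analysed here, so nothing below differs between the tissues. All values belong to 1 assembled genome and carry no replicate error.

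WNT6 and WNT10A encode secreted WNT ligands. IHH encodes Indian hedgehog, the ligand that paces cartilage growth in the growth plate together with parathyroid hormone-related protein. EPHA4 encodes a receptor tyrosine kinase for ephrins, with roles in limb and axon patterning. PAX3 encodes a paired box and homeobox transcription factor of neural crest and of the muscle precursors that migrate into limbs. In mouse and human the neighbourhood is a textbook case of chromatin domains: EPHA4 lies in a gene-poor domain that holds its limb enhancers, and deletions, inversions or duplications that move those enhancers across a domain boundary bring WNT6, IHH or PAX3 under their control and cause limb malformations. Order, strand and distance are therefore described here gene by gene.

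All 5 genes lay on scaffold 23, in the order WNT6, WNT10A, IHH, EPHA4, PAX3. WNT6 occupied 24977192 to 24985479 on the plus strand. WNT10A followed at 24992858 to 25004652, also on the plus strand. IHH lay at 25133571 to 25142084 on the minus strand. EPHA4 lay at 27143181 to 27274502, and PAX3 at 27788999 to 27883138, both on the minus strand. The stretch from the first base of WNT6 to the last of PAX3 measured 2.91 Mb, and the scaffold's annotation ran on for 11.2 Mb beyond PAX3, so no scaffold end came near it.

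**Figure D1:**
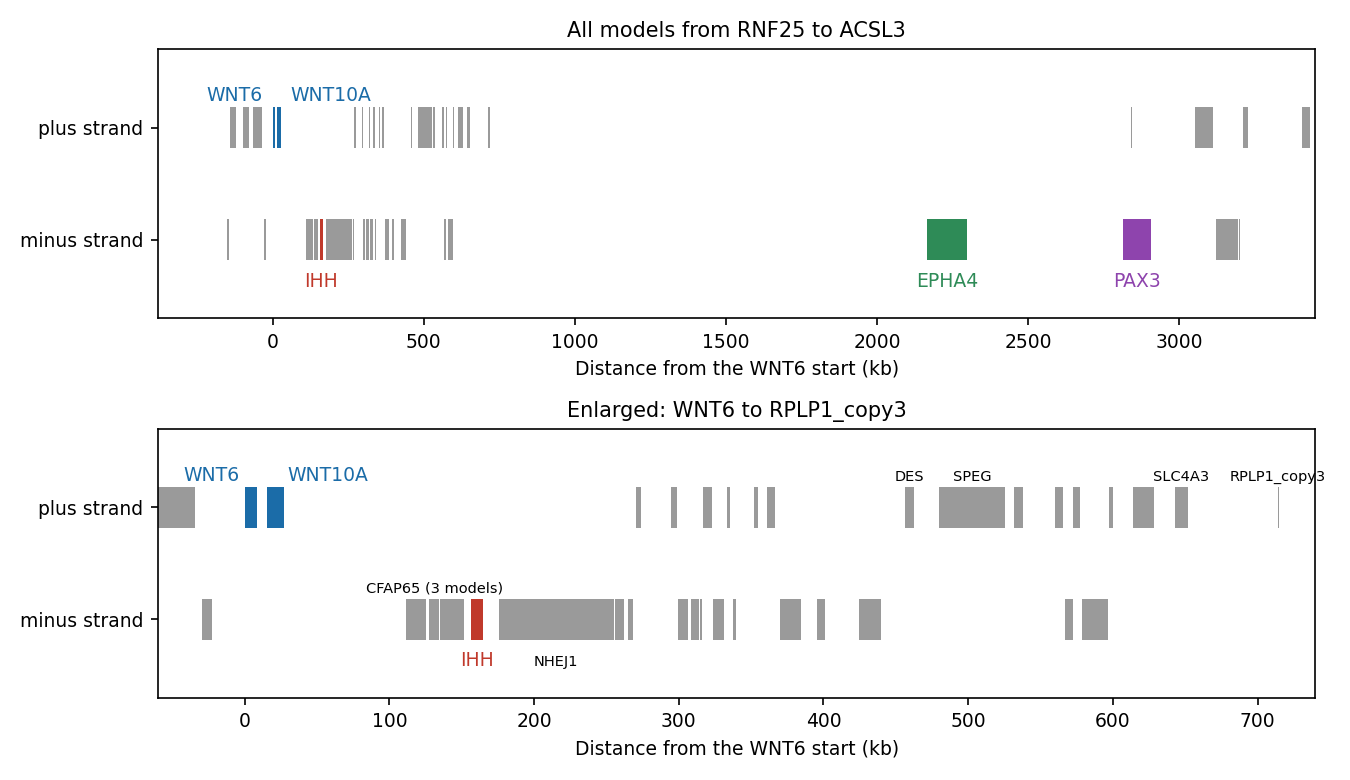
Map of the deposited models by strand, with the distance from the WNT6 start in kb on the x axis; coloured boxes are the 5 named genes and grey boxes all other models, and the lower panel enlarges the first part. WNT6, WNT10A and IHH sit in a crowded stretch that ends with SLC4A3, while EPHA4 and PAX3 stand almost alone to the right, with the PAX3 start at 2906 kb.

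The order of the mole genes was set against a list of 66 genes in the order and strand they have in the corresponding part of human chromosome 2, from ARPC2 to DOCK10, written from general knowledge. A model was present for 63 of them, RETREG2 under its older symbol FAM134A. All 62 successive pairs were kept, where a kept pair shares a scaffold, is at most 2 Mb apart and has under 5 listed genes in the middle. A symbol with more than 1 model was placed by whichever model lay closest to the genes beside it in the list, and models without a copy suffix gave 62 kept pairs as well. Among all possible pairs of the 63 genes, 0 were out of order. The strand was the listed one for 63 of 63. Between WNT6 and PAX3 alone, 31 of 34 listed genes had a model, 30 of 30 successive pairs were kept and 31 of 31 strands were as listed. The conserved mammalian order was thus present on 1 scaffold, within a block of 63 genes that spans 5.43 Mb, from 24508042 to 29936207. SLC4A3 and EPHA4, the pair with the longest distance, lay 1523 kb apart between their lower edges, and with a limit of 1 Mb this pair was no longer kept.

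**Figure D2:**
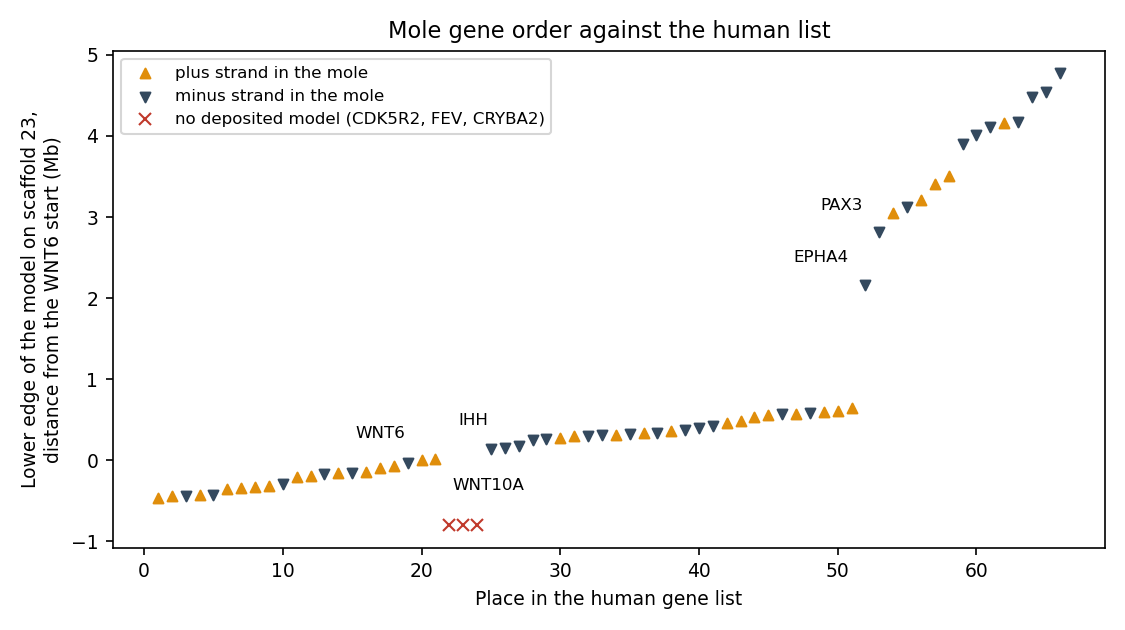
Place of each gene in the human list (x axis) against the lower edge of its mole model, as distance from the WNT6 start in Mb (y axis); triangles up and down are plus and minus strand, and crosses, set at the bottom without a position, are listed genes without a model. The 63 points rise without a reversal, nearly flat up to SLC4A3 and then with a jump to EPHA4.

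The 3 listed genes without a deposited model were CDK5R2 (an activator of the neuronal kinase CDK5), FEV (an ETS factor of serotonin neurons) and CRYBA2 (a lens crystallin). They are successive in the list, after WNT10A and before CFAP65. In the deposited annotation the place between WNT10A and the first CFAP65 model was an empty gap of 84.3 kb, from 25004653 to 25089002. For build MPIMG_talOcc4v2.1, a newer assembly of the mole, RefSeq places CDK5R2, FEV and CRYBA2, in that order and with 0 other features, between WNT10A and CFAP65. Over the whole list, 62 of 66 symbols were found in the RefSeq table by name, and 61 of 61 successive pairs were kept there with 0 genes out of order. PNKD, BCS1L, CYP27A1 and TUBA4A were not matched there by name.

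Neighbours in the 2 tables were also compared without the human list. Over all symbols with 1 model in both tables, 96.4% of 12085 successive deposited pairs were also successive in RefSeq, other genes being ignored. Between WNT6 and PAX3 it was 26 of 26, close to that background. In the RefSeq table all 5 genes lay on 1 sequence, as inferred from the running order of start positions. It lists 43 features between WNT6 and PAX3, of which 34 are protein-coding and 7 are long non-coding RNA genes. Of the 31 with a symbol, 28 had a deposited model in the stretch, and the other 3 are CDK5R2, FEV and CRYBA2.

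Spacing divided the stretch into a crowded part and an empty part. From WNT6 to SLC4A3, 33 models filled 0.652 Mb, each CFAP65 and ATG9A model being counted separately. That is 50.6 models per Mb, against 10.7 per Mb, counted the same way, over all scaffolds annotated to at least 1 Mb. Coding bases made up 10.2% of this part, against 1.62% over those scaffolds. From the end of SLC4A3 to the end of PAX3 there were 4 models in 2.25 Mb, or 1.77 per Mb, and coding bases made up 0.247%. These 4 were EPHA4, PAX3 and a pair of single-exon models named for ribosomal proteins. RPLP1_copy3, at 25691007 to 25691348, had 342 coding bases, and 6 of the 7 RPLP1 models of the annotation have 1 coding exon. RPL17_copy13, at 27817574 to 27818139, lay inside intron 5 of PAX3 on the opposite strand, and 20 of 21 RPL17 models have 1 coding exon.

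The longest gap ran from RPLP1_copy3 to EPHA4, from 25691349 to 27143180, on the 3′ side of EPHA4. It measured 1.45 Mb and was the longest of 362 gaps on scaffold 23. Of 20408 gaps between merged models in the whole annotation, 45 (0.221%) were as long or longer. The distance from SLC4A3, the nearest model with several exons, to EPHA4 was 1.51 Mb, and when models with 1 coding exon did not bound gaps the share as long or longer was 0.435%. The 1.45 Mb gap was 1.09 times the 1.33 Mb that separate FGF9, the viewpoint of the study, from its neighbour on the side of lower coordinates. On the 5′ side of EPHA4, PAX3 was the next model, across 514 kb from 27274503 to 27788998, a length reached by 499 gaps (2.45%). These were the only gaps of at least 500 kb among the 35 in the stretch, against 2.53% of all gaps, and together they covered 67.7% of it.

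The RefSeq table of the later build lists 7 features in the gap between SLC4A3 and EPHA4, of which 4 are long non-coding RNA genes, 1 a small nucleolar RNA gene, 1 a pseudogene and 1 a protein-coding gene without a symbol. Between EPHA4 and PAX3 it lists 1 long non-coding RNA gene. No feature with a symbol stands in either gap there. Long non-coding RNA genes are not part of the deposited annotation, whose models all carry coding exons.

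**Figure D3:**
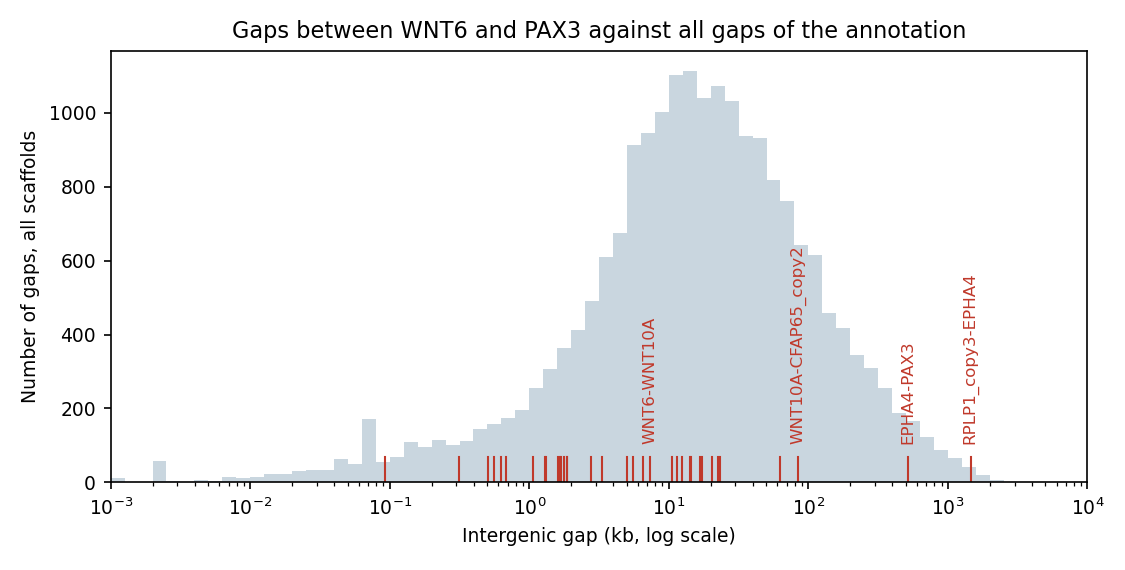
Histogram of all intergenic gaps of the annotation (x axis, gap in kb on a log scale; y axis, number of gaps), with red ticks for the gaps between WNT6 and PAX3. Most ticks lie left of the overall median of 16.3 kb, and the gaps of 514 and 1452 kb beside EPHA4 lie in the right tail.

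Within the crowded part the gaps were short. The 32 gaps from WNT6 to SLC4A3 had a median of 3.04 kb, against 16.3 kb for all gaps, and 26 of the 32 were below that overall median. They include gaps between models of 1 symbol on 1 strand, 1.69 and 0.508 kb for CFAP65 and 0.555 kb for ATG9A. The shortest of the 32, of 92 bases, parted CHPF, which encodes a chondroitin polymerising factor, from TMEM198 on the opposite strand. WNT6 and WNT10A were parted by 7.38 kb with 0 models between. WNT10A and IHH were 129 kb apart, and the only deposited models between them were 3 of the flagellum gene CFAP65. RefSeq of the later build also places CDK5R2, FEV and CRYBA2 between WNT10A and CFAP65. Only 4.98 kb lay between CFAP65_copy3 and the 3′ end of IHH. IHH and EPHA4 were 2001 kb apart and 28 models lay between them. Measured between starts, the distances were 15.7 kb from WNT6 to WNT10A, 149 kb from WNT10A to IHH, 2.13 Mb from IHH to EPHA4 and 609 kb from EPHA4 to PAX3.

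The nearest neighbour on the 5′ side of IHH was NHEJ1, a factor of non-homologous DNA end joining, which lay on the same strand with its 3′ end 10.6 kb from the IHH start. That start is the 5′ end of the IHH model, whose first coding exon has 9 bases and was not tested for completeness. In mammals, enhancers that drive IHH in the skeleton lie within NHEJ1. The mole NHEJ1 model spanned 79.4 kb at 25152734 to 25232146, and 83.2% of that was intron 6, of 66.0 kb. This intron lay between 12.0 and 78.0 kb from the IHH start. Introns of that length or more made up 0.495% of the 157050 in the annotation, whose median intron was 1.12 kb. The other 7 introns of NHEJ1 ranged from 0.297 to 6.91 kb. The NHEJ1 model had 1680 coding bases in 9 exons, while its match to the target transcript covered only bases 146 to 1046. Whether all 9 exons belong to NHEJ1 was not tested.

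The density around each gene's start followed the same division. Within 1 Mb of the start, WNT6, WNT10A and IHH each had 59 other gene starts, against a median of 25 for all models, and 17.2% of models had as many or more. Of the 59 around IHH, 31 were on the side of lower coordinates and 28 on the other. With a window of 0.5 Mb, which held 46 other starts around IHH, the share with as many or more was 7.64%. Within 1 Mb, EPHA4 had 6 other starts, all on the PAX3 side and 0 on the side of the long gap. PAX3 had 9 within 1 Mb, of which 2 lay on the EPHA4 side. As few or fewer than EPHA4 were found for 14.7% of all models. That share was 3.73% among models with 1 Mb or more of annotated scaffold on either side, 6.44% with models of at least 2 coding exons and 7.08% with a window of 0.5 Mb, in which EPHA4 had 0 other starts.

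EPHA4 was isolated on both sides. The shorter of its flanking gaps was 514 kb, and 0.408% of 19860 models or merged groups of overlapping models had a shorter gap of that length or more. For PAX3, with 514 kb below and 145 kb above, where SGPP2 follows, the share was 3.52%. For WNT6 and WNT10A the shorter gap is the 7.38 kb between them, and 52.6% of models had one as long or longer. Among the 13 EPH receptor genes with 1 model, EPHA4 had the largest sum of flanking gaps, 1966 kb, and EPHA7 came next with 1888 kb, from 1333 kb and 555 kb. EPHB1, EPHA5 and EPHA3 followed with 807, 755 and 754 kb, and the smallest sum was the 11.9 kb of EPHB4. PAX3 was second among 8 PAX genes with 660 kb, after PAX1 with 779 kb, and PAX7, its closest relative, had 166 kb. WNT6, at 30.0 kb, ranked 16 of 18 WNT genes, and WNT10A, at 91.7 kb, ranked 7. The WNT10A sum includes the 84.3 kb gap in which CDK5R2, FEV and CRYBA2 have no deposited model, though RefSeq places them there.

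**Figure D4:**
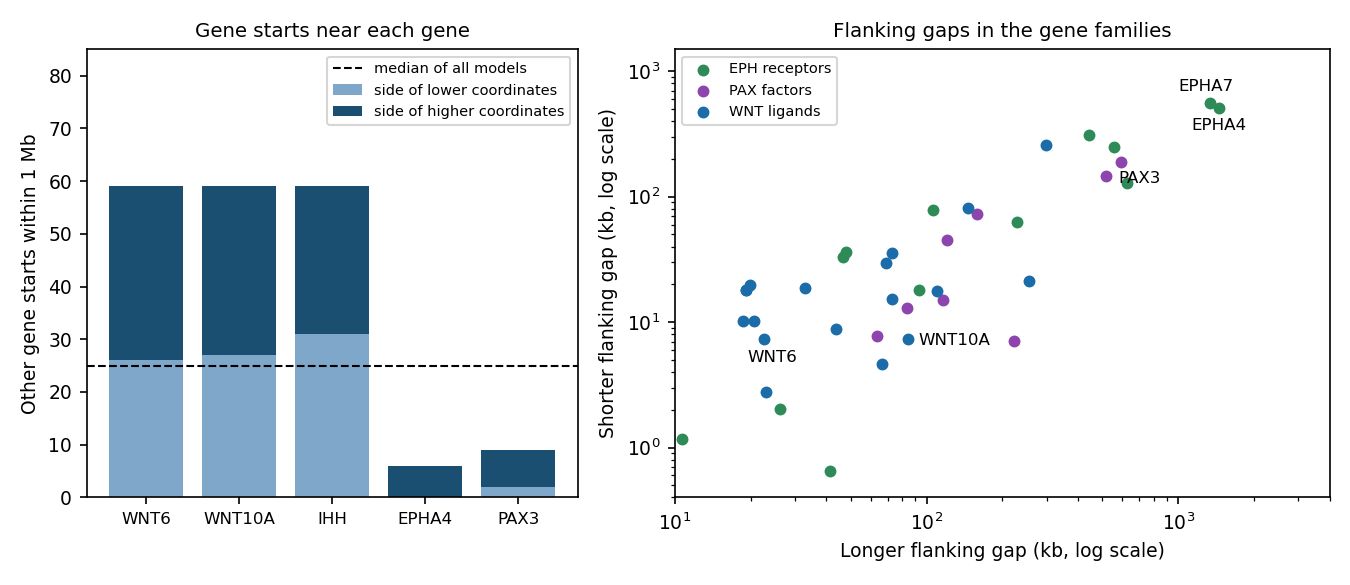
Left, other gene starts within 1 Mb of each gene, split by side, with the median of all models as a dashed line; right, shorter against longer flanking gap in kb (both axes log) for EPH, PAX and WNT genes with 1 model. EPHA4 and EPHA7 stand together at the upper right, PAX3 lies below them, and WNT6 and WNT10A lie among genes with short gaps.

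The gene bodies differed in the same sense. WNT6, WNT10A and IHH spanned 8.29, 11.8 and 8.51 kb. EPHA4 spanned 131 kb, a length reached by 3.65% of all models, and PAX3 94.1 kb, reached by 5.72%. Coding exons filled 12.5% of the WNT6 body and 10.9% of the IHH body, but 2.37% of EPHA4 and 1.65% of PAX3. In each of the 5 genes the longest intron made up a large part of the span. Intron 3 of EPHA4, of 54.2 kb, made up 41.3% of the gene. Intron 4 of PAX3, of 58.7 kb, made up 62.4%. Introns this long or longer were 0.686% and 0.606% of all introns. The longest introns of WNT6, WNT10A and IHH measured 5.52, 7.14 and 5.94 kb, which was 66.6%, 60.6% and 69.7% of their spans, each a larger share than in EPHA4. In WNT6 and IHH this was intron 1, after first coding exons of only 14 and 9 bases, whose completeness was not tested. PAX3 had the longest span of the 8 PAX genes with 1 model, and EPHA4 ranked 6 of 13 EPH receptor genes. PAX5, left out of that ranking for its 2 models, had a longer model than PAX3, from 5852100 to 5973743 on scaffold 15.

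Each WNT model had 4 coding exons. Those of WNT6 measured 14, 221, 335 and 462 bases and those of WNT10A 113, 263, 380 and 498 bases, so WNT10A was longer by 99, 42, 45 and 36 bases in turn. All 4 differences are multiples of 3. Both genes therefore interrupt the reading frame in the same way, with phases 0, 1, 2 and 0 from the first exon to the last (the phase is the number of bases before the next whole codon). Of 20 models of the 19 WNT ligand genes, 6 had 4 coding exons, and 5 of these had this phase series: WNT6, WNT10A, WNT1, WNT5B and WNT9B. The phases of WNT1 were computed from its exon lengths, since its deposited model gives none. Total coding length was 1032 bases in WNT6 and 1254 in WNT10A.

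IHH had 3 coding exons of 9, 264 and 655 bases, 928 in all, and came from the source named ALN, the other 4 genes coming from EVM, which combines evidence into consensus models. Its coding length leaves a remainder of 1 after division by 3. The other 4 of the 5 genes had whole codons, as did 87.8% of all models and 35 of the 37 in the stretch. First coding exons of under 20 bases were found in IHH and in WNT6, 2 of the 5 genes, against 6.48% of models with at least 2 coding exons. In mammals the first coding exon of IHH encodes the signal peptide and the beginning of the signalling domain. The deposited phase of the third IHH exon was 2, where the lengths of the exons before it give 0. The matched part of the IHH target transcript began at its base 356 and ended at 1282. For the WNT6 target it ran from 295 to 1313. Whether either first exon is complete was not tested.

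EPHA4 had 17 coding exons with 3117 bases, or 1039 codons. Many of its exon lengths recurred in other EPH receptors, read in order and in the same frame. These matches, by equal length and phase, use a rule to which the phase was added after matches by length alone had been seen. Of 15 other EPH models, 11 had an exon of 156 bases like EPHA4 exon 4, 9 one of 125 bases like exon 6, 11 one of 150 bases like exon 14, and 12 one of 194 bases like exon 15. EPHA5 shared most, with 10 of the 17 exons and 2063 of the coding bases. EPHA3 shared 8, and its 17 exons carried the phases of EPHA4 throughout. Exons 11 and 12, of 186 and 62 bases, were both present in 8 of 10 other EPHA models and in 0 of 5 EPHB models. Instead, EPHB1, EPHB2, EPHB3 and EPHB4 each had 1 exon of 248 bases, which is the sum of both. The EPHB receptors chiefly bind the transmembrane ephrin-B ligands and the EPHA receptors the membrane-anchored ephrin-A ligands, and EPHA4 is known to bind both. The shared exons 11 to 16 lie in the 3′ part of the gene, which in EPH receptors includes the kinase domain. Exons 1, 5 and 8, of 247, 339 and 112 bases, were each matched by 0 models. The matched part of the EPHA4 target transcript ran from 367 to 3236, or 2870 bases, fewer than the coding bases of the model. The shortfall is as long as the first exon, of 247 bases. Which exons fall outside the match was not tested.

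**Figure D5:**
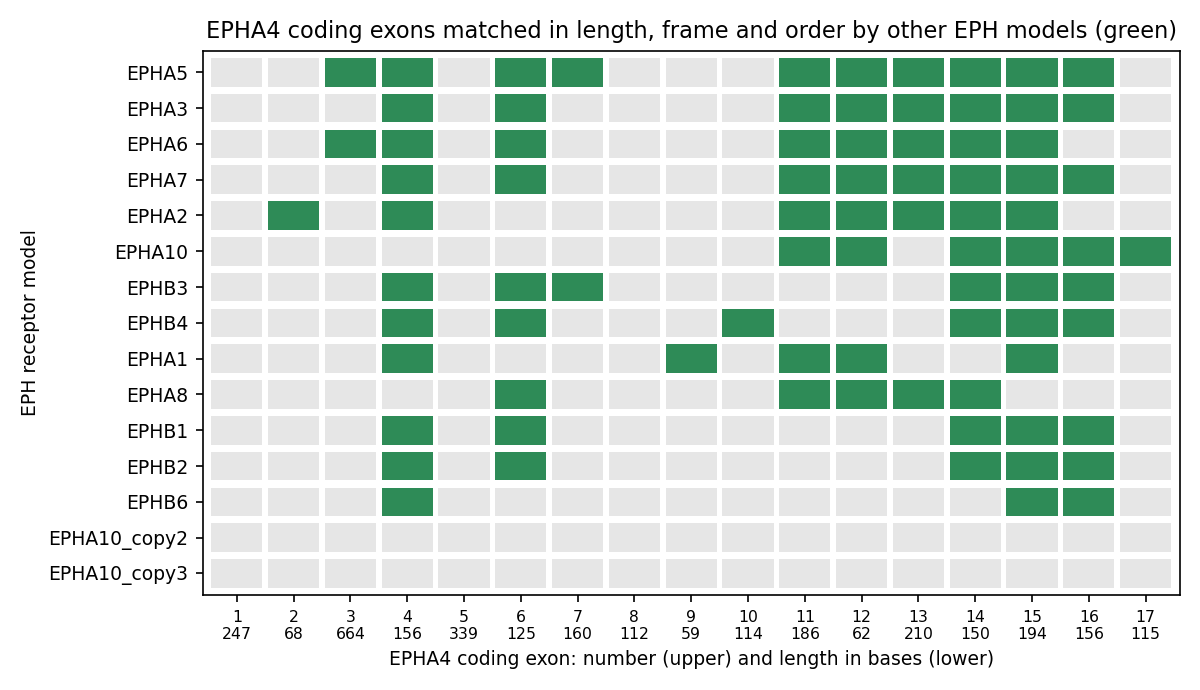
Coding exons of EPHA4 (x axis, number and length in bases) and the other EPH receptor models (y axis); green cells are exons matched in length, frame and order, grey cells are not matched. Matches gather in exons 4, 6 and 11 to 16, with 10 for EPHA5 and 0 for EPHA10_copy2 and EPHA10_copy3, which have 3 and 4 coding exons.

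PAX3 had 9 coding exons and 1554 bases, or 518 codons. Its closest relative PAX7, which takes over from PAX3 in muscle stem cells, shared 3 exons of equal length and frame with it, of 135, 166 and 247 bases, or exons 4, 6 and 8 of PAX3. PAX5 and PAX6 shared 1 each, and the models of PAX1, PAX2, PAX4, PAX8 and PAX9 shared 0. The last coding exon of PAX3 had 35 bases. The matched part of the PAX3 target transcript ran from 469 to 1833, or 1365 bases, against 1554 coding bases in the model.

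The EVM source made 34 of the 37, and its share over the whole annotation is not given here. Of the 37, 2 had 1 coding exon, against 24.7% of all models. In all, 37 of 37 carried a gene symbol, as did 21076 of the 23336 models of the annotation. There were 33 distinct symbols, of which 5 had at least 2 models anywhere in the annotation, against 14.6% of all symbols. Outside the ribosomal protein names these were CFAP65, ATG9A and TUBA4A. The 3 CFAP65 models matched successive parts of the transcript, 370 to 1298, 1375 to 3281 and 3577 to 5197, in the order of transcription, with 0.508 and 1.69 kb between them. Counted as 1, they leave 30 other models between WNT6 and PAX3. The ATG9A models (an autophagy lipid scramblase) overlapped slightly in the transcript, 161 to 382 and 367 to 2703, and lay 0.555 kb apart on 1 strand. TUBA4A was different. Its pair of models in the stretch, of 1302 and 1506 coding bases, matched the same part of the alpha tubulin transcript. They lay on opposite strands 12.4 kb apart, each with 3 coding exons. Of the 3 TUBA4A models of the annotation, the remaining one lay outside the stretch and had 1 coding exon.

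Some neighbours in the crowded part lay head to head. Of the 36 successive pairs of models in the stretch, 8 (22.2%) were divergent by strand, against 24.0% of all successive pairs counted the same way, so the share was near the background. In 1 of the 8, RPL17_copy13 lay nested inside PAX3, and the other 7 pairs lay head to head without overlap. Of these 7, CHPF and TMEM198 were 92 bases apart, ATG9A_copy2 and ANKZF1 1.06 kb, OBSL1 and INHA 1.30 kb, CNPPD1 and FAM134A 1.60 kb, and GLB1L and STK16 1.86 kb. INHA encodes the inhibin alpha subunit, a gonadal hormone chain. It lay at 25574839 to 25577269 with 2 coding exons, 598 kb from the WNT6 start. The muscle genes DES, which encodes desmin, and SPEG, a striated muscle kinase, followed each other on the plus strand with 17.4 kb between, and SPEG had the most coding exons of the stretch, 42.

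Outside WNT6 the next models were PRKAG3, a regulatory subunit of AMP-activated kinase in muscle, 22.6 kb away, then the sterol hydroxylase gene CYP27A1, TTLL4, STK36 and RNF25. Beyond PAX3 came SGPP2, FARSB, a single-exon RPL29_copy11 model, MOGAT1 and ACSL3. All except RPL29_copy11 stood in their listed place and strand.

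The WNT6 pair was then set beside the other WNT gene pairs, named after their positions were seen. WNT6 and WNT10A were the only tandem pair among the 4 examined. WNT1 and WNT10B, their relatives, lay on scaffold 34 head to head with 10.3 kb between and 0 models between them. The WNT10B model held only 2 coding exons and 804 coding bases, against 4 and 1254 in WNT10A. WNT3 and WNT9B lay head to head on scaffold 28 with 72.7 kb between, the WNT3 model holding only 1 coding exon of 258 bases. The models of WNT3A and WNT9A on scaffold 54 overlapped by position on opposite strands.

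Relatives of several neighbours of WNT6 lay on the scaffold of WNT1, in a list also chosen after positions were seen. Distances are from start to start, to the nearest model of a symbol, without regard to side. PRKAG1 lay 30.3 kb from the WNT1 start, where PRKAG3 lay 22.6 kb from that of WNT6. TUBA1A was 149 kb away, where TUBA4A was 339 kb from WNT6. PRPH (peripherin, an intermediate filament gene as DES is) was 226 kb away, where DES was 456 kb from WNT6. ASIC1 was 765 kb away and ASIC4 560 kb, and the metal transporter genes SLC11A2 and SLC11A1 were 1380 and 343 kb away. The sides differed. PRKAG1, TUBA1A, PRPH, ASIC1 and SLC11A2 all lay on the side of WNT1 away from WNT10B. TUBA4A, DES and ASIC4 lay on the WNT10A side of WNT6, and PRKAG3 and SLC11A1 on the other side. CTDSP2 and INHBC, relatives of CTDSP1 and INHA, were on the same scaffold but far off, starting at 15990602 and 15731157, where WNT1 started at 9833939. DHH, the relative of IHH, had no deposited model. Relatives of PAX3 and EPHA4 also shared a scaffold: PAX7, EPHA2, EPHA8, EPHB2 and WNT4 were all on scaffold 2, with 1.43 Mb from PAX7 to EPHA2 and 2.54 Mb to EPHA8, where PAX3 and EPHA4 were 609 kb apart.

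The pathway genes were counted by list. Of 82 distinct symbols over 8 lists, 79 had a model. Among hedgehog ligands only IHH had a model, while SHH and DHH had none and are named in RefSeq. Of 15 hedgehog reception and transduction genes 14 had a model, GAS1 being the exception, and BOC and KIF7 had 2 each. The KIF7 models matched separate parts of the transcript, 188 to 2397 and 2962 to 4218. All 6 genes of the loop between IHH and parathyroid hormone-related protein had a model, RUNX2 with 2. All 19 WNT ligands, 14 EPH receptors, 8 ephrins, 9 PAX factors and 9 genes of PAX3-dependent muscle precursors had one. WNT11 and PAX5 had 2 models and EPHA10 had 3.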

How the data were processed

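The series deposited 1 table used here, the gene annotation of mole build talOcc3, which names no sample. Positions of gene, transcript and coding exon are as deposited, counted from 1. Each transcript carries a match score assigned by the authors to a named target transcript, by a method not stated in the labels or the file. The submitters' processing notes name BWA, with no version or role. Depth per library is unknown.

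Symbols were read from model names after removing any copy or low-confidence suffix. Gaps were stretches between merged models, and abutting models gave none. A gene start was the 5′ end of the model. Exons of 2 models were matched by longest common order of equal length and phase. The RefSeq table of MPIMG_talOcc4v2.1 gave names and neighbours only, a new sequence being taken where start positions fall. Shares are descriptions of 1 genome, so there are no tests and no p-values. Named were the 5 genes, all models between, 5 models beyond each end, listed genes without a model, and pathway genes without a model or with at least 2, of which 1 result is not reported here. The genes and lists were chosen with earlier results of these data known, and the human list and pathway lists come from general knowledge. The lists of relatives and WNT pairs, the exon match by phase as well as length, and 5 alternatives were chosen after seeing the data. Routines were tested on simulated data. Python 3.11.15 and scipy 1.17.1 were used. Sequences were not used here.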

Additional observations from a re-analysis of the deposited data

How the results depend on the processing

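Kept pairs stayed at 61 or 62 under the distance limits of 1 and 5 Mb, RefSeq order, models without a copy suffix and 0 listed genes between, and listed strands at 63 of 63 without copy suffixes. With every model of a listed symbol counted, chosen after seeing the data, 68 of 69 strands were as listed, the exception being TUBA4A_copy2. The share of gaps as long as the one below EPHA4 moved from 0.221% to 0.435% without single-exon models as bounds, and for the gap to PAX3 from 2.45% to 3.31%, to 2.67% without models lacking a symbol and to 2.68% from start to start. The share of models with as few neighbours as EPHA4, 14.7%, became 6.44% with models of at least 2 coding exons, 7.08% with a 0.5 Mb window and 3.73% for models away from scaffold ends, chosen after seeing the data. The share with as many as IHH, 17.2%, became 16.4%, 7.64% and 20.5%. The cause was not tested. The comparison of coding length with RefSeq proteins was not run, since no protein sequence was used here. No paired analysis was possible because the annotation holds no samples and each tissue has 1 library. The precision of all positions is limited by the assembly and its models.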
